A study of Mus musculus with 4 samples.

Results

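CTCF and cohesin were represented on the arrays by 10 genes, Ctcf, Rad21, Smc1a, Smc3, Stag1, Stag2, Nipbl, Wapl, Pds5a and Pds5b. All probe sets whose only symbol in the platform annotation was 1 of these names were taken, which gave 10 probe sets, 1 for each gene, of 34760 in all. The whole table named 19937 genes in this way. RNA came from pro-B cells of the bone marrow of wild-type mice on the C57BL/6 background, isolated as B220+cKit+ cells and hybridized as replicates 1 to 4 to Mouse Gene 1.0 ST arrays of Affymetrix, 4 in all. The mice carried no transgene, and the sources used here give neither their age, nor their sex, nor whether cells of several animals were pooled or the replicates came from separate mice, so part of the spread may be technical. Sex-linked RNA, given further on, shows that the cells of replicate 3 came from other animals than those of the other replicates. All samples formed 1 group, so no contrast between conditions was possible and the values describe the replicates.

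Cohesin is a ring of SMC1A, SMC3 and RAD21 with 1 of the STAG subunits, which extrudes loops of chromatin and also holds sister chromatids together. NIPBL loads it and stimulates extrusion, PDS5 proteins and WAPL release it, and CTCF bound to DNA halts it, which sets the ends of loops. In pro-B cells loop extrusion draws distant variable segments of the immunoglobulin heavy-chain locus towards the recombination centre, a process known as locus contraction.

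The values are log2 intensities. A probe set was counted as above background where it exceeded, on every array, a line set by chemosensory receptor genes, which are silent in lymphocytes. It was the 95th percentile of their 1242 probe sets (olfactory, taste and vomeronasal) and lay at log2 values of 6.53 to 6.62. Pearson's r between pairs of arrays was 0.986 to 0.989 across probe sets, which are not independent replicates. The arrays were not alike in their cell-type markers. Erythroid markers deviated by a median of -1.61 on the log2 scale on the array of replicate 1 from the mean of the other arrays, and early B markers by 0.68. Of the genes behind the sorting gate, Kit was at 10.46 to 10.83 and Ptprc at 11.29 to 11.86 on every array. Ptprc encodes CD45, of which B220 is an isoform, and its probe set was matched by symbol and does not show that isoform. In these bulk samples fewer cells of a type and less RNA per cell cannot be told apart.

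The promoters of 7 of the genes were found in the RefSeq table of mouse build GRCm38.p6. The 250 bases before the listed start of transcription are printed for 4 of them, because their genes deviated most clearly in opposite directions on the array of replicate 1, as given further on: Stag1 and Pds5b had their highest value there, Smc3 and Wapl their lowest. Sequences run 5′ to 3′, and capitals mark matches of the motifs named after them.
Stag1, chr9:100643198-100643447 (plus strand): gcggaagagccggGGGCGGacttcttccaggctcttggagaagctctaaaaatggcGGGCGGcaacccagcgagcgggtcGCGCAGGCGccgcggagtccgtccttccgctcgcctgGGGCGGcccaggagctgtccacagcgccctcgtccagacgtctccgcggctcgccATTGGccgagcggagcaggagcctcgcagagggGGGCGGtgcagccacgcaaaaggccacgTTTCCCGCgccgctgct
Pds5b, chr5:150673577-150673826 (plus strand): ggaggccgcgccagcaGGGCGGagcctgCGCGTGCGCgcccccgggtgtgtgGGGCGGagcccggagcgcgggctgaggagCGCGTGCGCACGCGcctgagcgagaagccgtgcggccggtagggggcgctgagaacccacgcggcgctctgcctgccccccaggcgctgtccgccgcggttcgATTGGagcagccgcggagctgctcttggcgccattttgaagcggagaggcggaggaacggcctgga
Smc3, chr19:53600146-53600395 (plus strand): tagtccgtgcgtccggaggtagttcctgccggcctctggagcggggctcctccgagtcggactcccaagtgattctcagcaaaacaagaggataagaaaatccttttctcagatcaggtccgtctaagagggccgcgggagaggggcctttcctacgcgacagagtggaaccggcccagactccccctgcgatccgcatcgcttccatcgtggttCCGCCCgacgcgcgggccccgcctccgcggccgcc
Wapl, chr14:34673678-34673927 (plus strand): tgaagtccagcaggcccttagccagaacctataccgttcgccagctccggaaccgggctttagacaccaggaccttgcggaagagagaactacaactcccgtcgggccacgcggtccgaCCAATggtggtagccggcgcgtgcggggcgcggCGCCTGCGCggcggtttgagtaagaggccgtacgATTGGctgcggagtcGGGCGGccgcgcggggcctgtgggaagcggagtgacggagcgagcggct

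The 7 windows had a GC content of 56.8% to 80.4%, against a median of 52.4% over 32841 windows of the same length. Their ratio of observed to expected CpG was 0.79 to 1.14, against a median of 0.37. All 7 thus lay on the GC-rich and CpG-rich side of the table. The letters searched, on both strands, were GGGCGG for the GC box, CCAAT for the box of that name, CCGGAAG for ETS factors, TTTCCCGC for E2F, GCGCANGCG for NRF1, AAGATGGCG for YY1, TCCCNNGGG for EBF1 and TATAAA for the TATA box. GC box letters stood in all 7 windows and in 32.7% of all windows, but in 69.4% of the 11957 windows with a GC content of at least 56.8%. That limit is the lowest GC content of the 7, that of Smc1a, and the others lay at 64.4% to 80.4%. The 11957 windows are therefore not matched to the 7 in GC content. CCAAT stood in 4 of the 7 windows (33.9% of all). NRF1 letters stood in those of Stag1, Wapl and Pds5b (5.16% of all, 11.3% of the 11957 windows), and 2 of the 3 matches in the Pds5b window overlapped. E2F letters stood in the window of Stag1 alone (0.895% of all). ETS (6.91% of all windows), YY1 (0.603%), EBF1 (5.6%) and TATA letters (12.4%) stood in none of the 7. A match of letters is not a bound site, and no motif divided the printed windows by the direction of their genes on the array of replicate 1.

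All 10 genes were above background on all 4 arrays, as were 63.5% of the 21640 probe sets with 1 symbol. The lowest margin of any member over the line of its array was 3.23 on the log2 scale, for Stag1, and the largest mean margin was 5.52, for Pds5a. Levels of different probe sets are not compared, since they also depend on the probes.

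**Figure D1:**
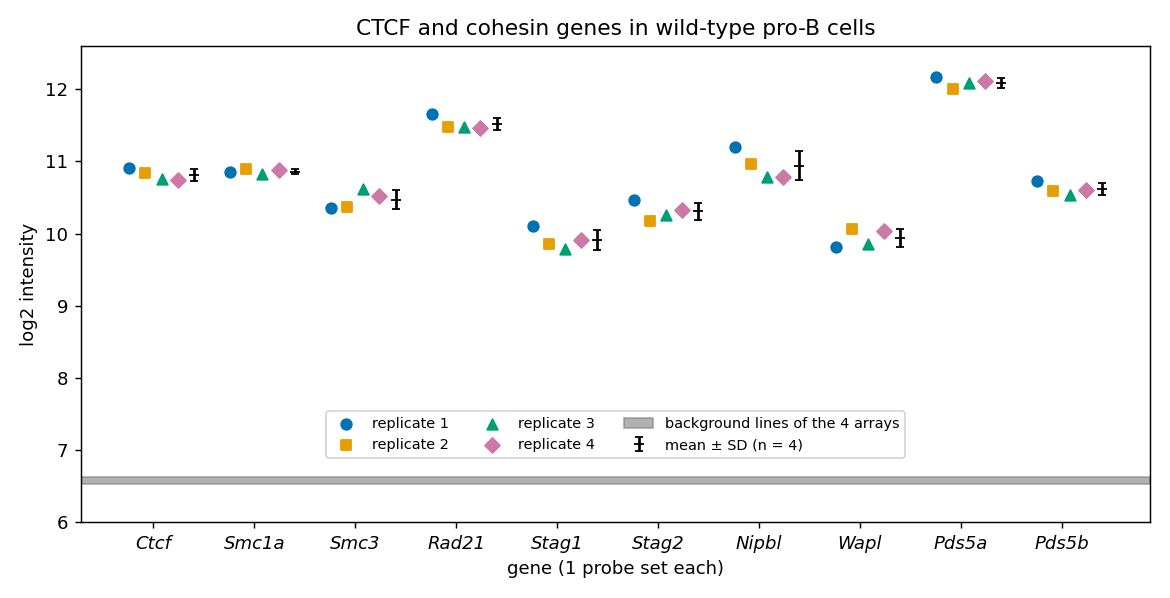
Log2 intensity (vertical axis) of the 10 genes (horizontal axis) on the arrays of replicates 1 to 4 of wild-type pro-B cells, with the mean ± SD (n = 4) and the band that holds the background lines of the 4 arrays. All points lie at 9.78 or above, and the band lies at 6.53 to 6.62.

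Among the subunits of the ring, Smc1a, an ATPase of the SMC family, had the smallest SD. Its log2 values were 10.86, 10.90, 10.82 and 10.88 on the arrays of replicates 1 to 4, with a mean of 10.86 ± 0.036 (SD, n = 4), and the SD was 0.021 without replicate 3. Smc3, its ATPase partner, had log2 values of 10.35, 10.37, 10.62 and 10.52, with a mean of 10.47 ± 0.13 (SD, n = 4). The arrays of replicates 3 and 4 were above those of replicates 1 and 2. Rad21, the kleisin that closes the ring and is cut by separase at anaphase, had log2 values of 11.65, 11.48, 11.48 and 11.46, with a mean of 11.52 ± 0.087 (SD, n = 4). Replicate 1 lay 0.17 above the mean of the others, and without it the SD was 0.012, below that of Smc1a at 0.044. The within-array difference of Smc3 minus Smc1a, centred on its mean, ranged over 0.33 on the log2 scale, or 1.26-fold, and was highest on the array of replicate 3, at 0.21. Its SD was 0.15, and 0.088 without replicate 3.

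The STAG subunits are alternative parts of the complex that contact RAD21 and CTCF. Stag1 had log2 values of 10.10, 9.85, 9.78 and 9.91, with a mean of 9.91 ± 0.14 (SD, n = 4). Stag2 had log2 values of 10.47, 10.18, 10.26 and 10.32, with a mean of 10.31 ± 0.12 (SD, n = 4). Both had their highest value on the array of replicate 1, at 0.25 and 0.21 above the mean of the others. Their within-array difference ranged over 0.15 on the log2 scale, or 1.11-fold, less than either gene alone (0.32 and 0.29). Without replicate 1 the SDs were 0.065 for Stag1 and 0.069 for Stag2. The SD of their difference was 0.063, and 0.040 without replicate 3. Without replicate 1 it was 0.074, above that of either gene alone. The narrower range of the difference thus rests on replicate 1.

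Nipbl, the loader, had the largest SD of the 10 genes. Its log2 values were 11.20, 10.97, 10.78 and 10.79, with a mean of 10.94 ± 0.20 (SD, n = 4). The range of 0.42 is a 1.34-fold difference, with replicate 1 on top and replicates 3 and 4 nearly level. Without replicate 1 the SD was 0.10, below those of Smc3 at 0.13 and Wapl at 0.11. The 3 probe sets closest to Nipbl after centring each on its mean were those of Ccdc88a, Dnal4 and Dvl3, which differed from it by at most 0.0183, 0.0258 and 0.0277 on any of the 4 arrays. This likeness is weak, because 334 of 13739 probe sets lay within 0.1.

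Among the genes of cohesin release, Wapl, whose product opens the ring, had log2 values of 9.82, 10.06, 9.85 and 10.03, with a mean of 9.94 ± 0.12 (SD, n = 4). Replicates 2 and 4 were above replicates 1 and 3. The PDS5 proteins bind the ring and take part both in release and in its protection by acetylation. Pds5a had log2 values of 12.17, 12.01, 12.09 and 12.11, with a mean of 12.09 ± 0.068 (SD, n = 4). Pds5b had log2 values of 10.73, 10.59, 10.54 and 10.61, with a mean of 10.62 ± 0.080 (SD, n = 4). Both PDS5 genes were highest on the array of replicate 1, and their within-array difference ranged over 0.13 on the log2 scale, or 1.09-fold. The SD of Pds5a was 0.043 without replicate 2, and that of Pds5b 0.033 without replicate 1. Without replicate 1 the SD of their difference was 0.064, above that of Pds5a, at 0.053, and that of Pds5b.

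Ctcf, the zinc finger protein that marks loop ends, had log2 values of 10.91, 10.84, 10.76 and 10.74, with a mean of 10.81 ± 0.081 (SD, n = 4). The full range was 0.18, or 1.13-fold. Replicate 1 was again highest, at 0.14 above the mean of the others, and without it the SD was 0.053.

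Of the 4 pairs compared, loader and release factor had the widest difference over the arrays. The within-array difference of Wapl and Nipbl, centred on its mean, was -0.39 for replicate 1, 0.09 for replicate 2, 0.07 for replicate 3 and 0.24 for replicate 4. It ranged over 0.63 on the log2 scale, or 1.55-fold, with an SD of 0.27 (n = 4). Without replicate 1 the SD was 0.093, below that of Smc3 minus Smc1a at 0.17. This divergence and its rank among the 4 pairs thus rest mainly on 1 array.

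The spread of the 10 genes was about that of the arrays as a whole. Their SDs ran from 0.036 to 0.20 with a median of 0.10, beside a median of 0.11 over 13740 probe sets with 1 symbol above background. The SD of Smc1a lay above those of 3.86% of these probe sets, that of Pds5a above 18.2%, that of Stag1 above 63.0% and that of Nipbl above 83.6%. In 5 of the 10 genes the SD was below the median of all. Without replicate 1 the median of the 10 was 0.059, beside 0.096 over all.

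**Figure D2:**
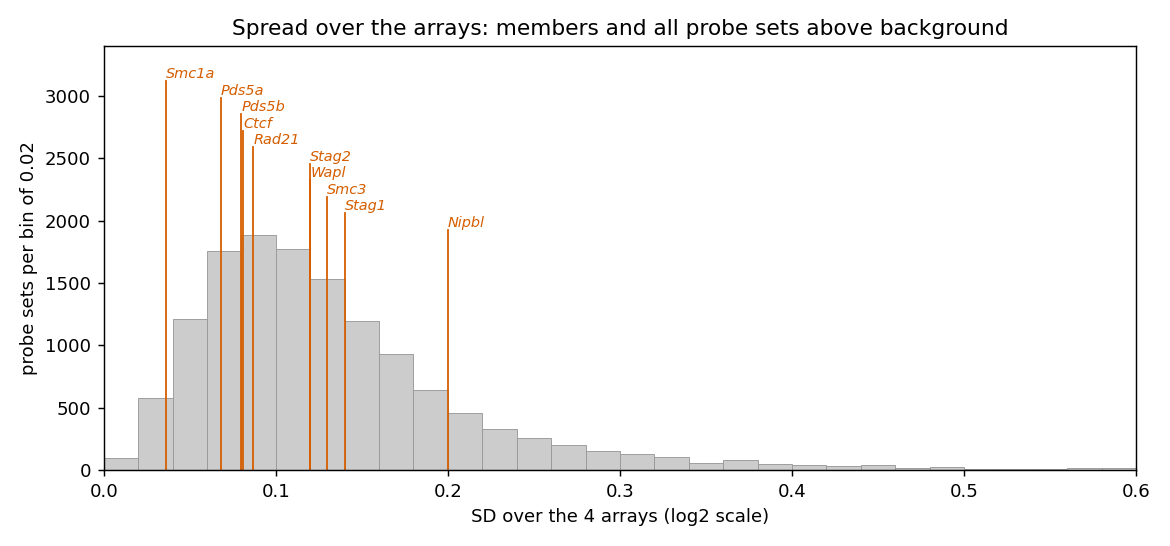
SD over the 4 arrays on the log2 scale (horizontal axis) and number of probe sets in bins of 0.02 (vertical axis) for the 13740 single-symbol probe sets above background (grey bars; 81 with an SD over 0.6 are not shown). Vertical lines mark the 10 genes, from Smc1a at 0.036 to Nipbl at 0.20.

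On the array of replicate 1, 7 of the 10 genes had their highest value (Ctcf, Rad21, Stag1, Stag2, Nipbl, Pds5a and Pds5b), whereas 33.2% of the probe sets above background were highest there. The deviation from the mean of the other arrays had a median of 0.14 on the log2 scale over the 10 genes, beside 0.010 over all probe sets above background. Smc3 at -0.16 and Wapl at -0.17 lay on the other side, and Smc1a at -0.01 near the middle. The other arrays held the highest value of 2 of the 10 genes (replicate 2, 24.3% of all probe sets), 1 (replicate 3, 23.2%) and 0 (replicate 4, 19.3%). On the array of replicate 3, 9 of 10 were below the mean of the others, all but Smc3, with a median of -0.07, whereas 52.2% of all probe sets above background were higher there, with a median of 0.008. Without replicate 1 in that mean it was 6 of 10, with a median of -0.041. The medians were -0.04 for replicate 2, with 4 genes higher (49.3% of all probe sets), and 0.01 for replicate 4, with 5 higher (45.9%).

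**Figure D3:**
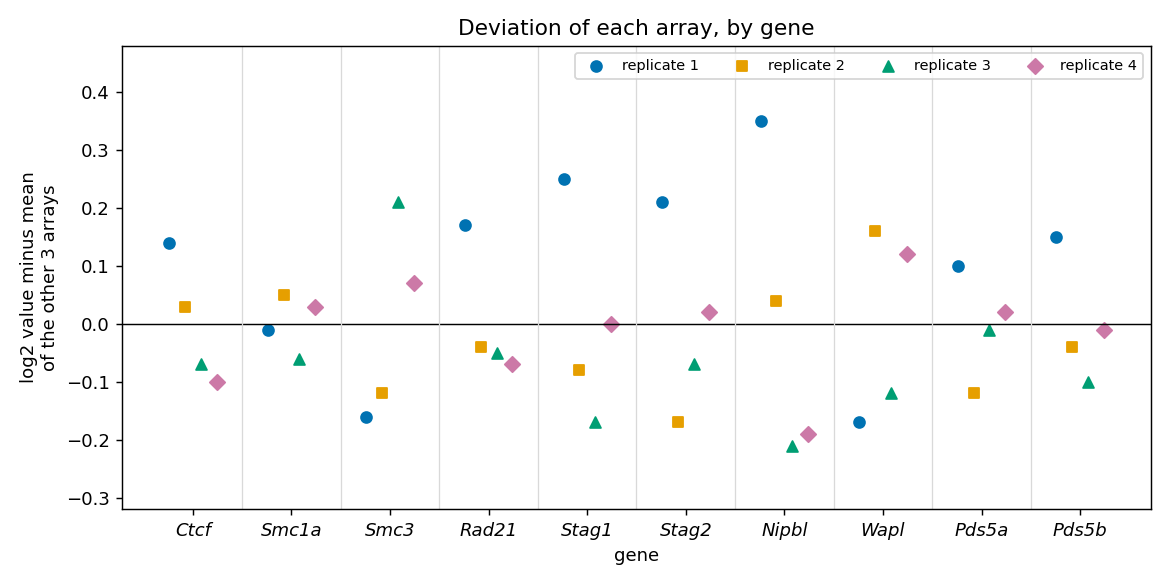
Log2 value on 1 array minus the mean of the other 3 arrays (vertical axis) for each of the 10 genes (horizontal axis), with 1 point for each replicate. The points of replicate 1 are the highest for 7 genes, up to 0.35 for Nipbl, and the lowest for Smc3 and Wapl.

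Markers of cell types moved on the same array and also on the others, and their part in these deviations was not tested. On the array of replicate 1, 52.1% of all probe sets above background were higher than the mean of the others, a share that stands beside each count below. Of 12 early B markers above background, 11 were higher there. The exception was Kit, a gene behind the sorting gate, at -0.36. Pax5, named further on for heavy-chain contraction, is also in this marker list. Of 9 erythroid markers, 9 were lower than the mean of the others. Of 13 early B markers with a probe set, Rag2, a subunit of the recombinase, was not above background on all arrays. The summed level of the early B markers (log2 of the sum of linear intensities) was 15.19 there and 14.32 to 14.78 elsewhere, and that of the erythroid markers 13.54 there and 14.45 to 14.66 elsewhere. All 9 erythroid markers with a probe set were above background on all arrays. So were 14 of 14 granulocyte and monocyte, 4 of 4 megakaryocyte and 7 of 8 T and NK markers. The share over all probe sets with 1 symbol was 63.5%. The summed level of the granulocyte and monocyte markers was 16.38 on the array of replicate 1 and 16.28 to 16.56 elsewhere. RNA of marker genes of other lineages was thus measured on every array, and the cells it came from were not tested. Megakaryocyte markers deviated by a median of 0.31 (3 of 4 higher), granulocyte and monocyte markers by -0.03 (6 of 14 higher) and T and NK markers by -0.12 (2 of 7 higher). Cell cycle genes, which mark dividing cells and thus those that build cohesion, deviated by -0.05 (9 of 20 higher) and housekeeping genes by -0.03 (3 of 8 higher). On the arrays of replicates 2, 3 and 4 the medians of early B markers were -0.30, 0.14 and -0.56. Those of erythroid markers were 0.71, 0.41 and 0.45, each against a mean that includes replicate 1. For granulocyte and monocyte markers they were -0.31, 0.18 and 0.23. For megakaryocyte markers they were 0.47, -0.04 and -0.58, and for T and NK markers -0.04, 0.01 and 0.02.

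**Figure D4:**
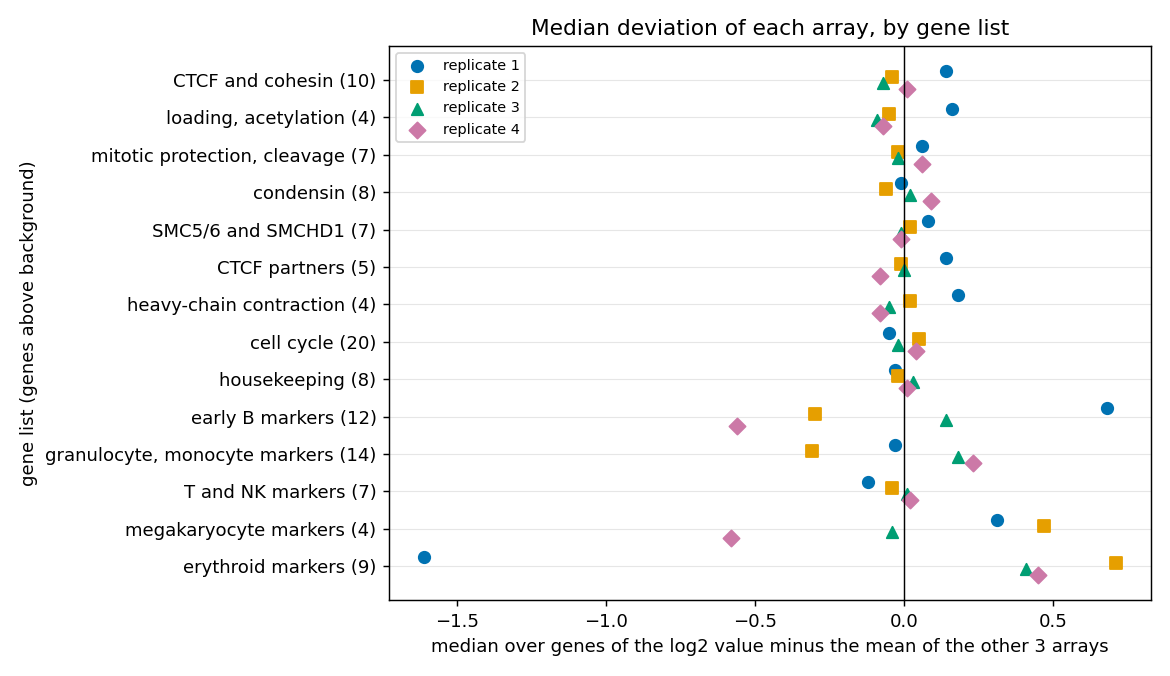
Median over the genes of a list of the log2 value on 1 array minus the mean of the other 3 arrays (horizontal axis), by gene list (vertical axis, with the number of genes above background), for the 4 replicates. On replicate 1 the CTCF and cohesin genes lie at 0.14, the early B markers at 0.68, the erythroid markers at -1.61 and condensin at -0.01.

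Of the other genes of the pathway, 40 had a probe set with 1 symbol and 37 of these were above background on all arrays. The share over all probe sets with 1 symbol was 63.5%, which stands beside the count of each list below. Zfp143 was not analysed here. In loading and acetylation 4 of 4 passed. Mau2, the partner of NIPBL, was at a log2 value of 10.42 ± 0.083 (SD, n = 4), Esco2, the acetyltransferase of replicating cells, at 10.57 ± 0.13, and Hdac8, which removes the acetyl mark from SMC3, at 8.91 ± 0.21. Like 7 of the 10 genes, Hdac8 was highest on the array of replicate 1, at 9.22 against 8.76 to 8.89. The 2 probe sets of Esco1 did not have the same order: 1 was highest in replicate 3 (8.73) and the other in replicate 1 (9.34).

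Genes that protect or cut cohesin in mitosis passed in 7 of 7 cases. They included Sgo1, the shugoshin that guards centromeric cohesin, at a log2 value of 10.02 ± 0.083 (SD, n = 4). Cdca5, which encodes sororin, an antagonist of WAPL, was at 10.46 ± 0.097. Espl1, the separase that cleaves RAD21, was at 9.35 ± 0.10 and its inhibitor Pttg1, securin, at 8.95 ± 0.079. Plk1, a mitotic kinase, was the 1 gene of this list below the mean of the others on the array of replicate 1, by -0.19.

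Of 5 germline paralogs, 2 were above background on all arrays. Smc1b had log2 values of 5.72, 6.19, 5.97 and 6.03, below the line on every array, and both probe sets of Rad21l lay below it too, with means of 4.80 and 4.40. Ctcfl, the testis paralog of Ctcf, had log2 values of 6.70, 6.65, 6.73 and 6.58 and was above the line on 3 of 4 arrays. Rec8, the meiotic kleisin, passed narrowly with values of 6.76, 7.35, 7.08 and 7.23. Stag3 passed with values of 7.94, 7.79, 8.29 and 7.51. With a line at the 99th percentile, 36 genes passed in place of 37.

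Condensin, the other SMC complex that compacts chromosomes in mitosis, passed with 8 of 8 genes. Its arrays were ordered otherwise: 6 of 8 genes had their highest value in replicate 4 and 0 in replicate 1. Over all probe sets above background the shares were 19.3% and 33.2%. The median deviation of the 8 genes in replicate 4 was 0.09 on the log2 scale. Cell cycle genes also lay higher in replicate 4, by a median of 0.04 (16 of 20 higher). Genes of mitotic protection and cleavage did so by 0.06 (5 of 7 higher). Over all probe sets above background 45.9% were higher there. Ncaph led by little, at 10.79 against 10.78 in replicate 3. Smc2 had log2 values of 10.24, 10.18, 10.24 and 10.32, and Smc4 of 11.14, 11.01, 11.22 and 11.22. Whether condensin and cohesin genes differ in this was not tested. The SMC5/6 list, with the atypical SMC protein gene Smchd1, passed with 7 of 7. There Smc5 and Smc6 were highest in replicate 1, at 10.17 and 10.21, while Nsmce2, a SUMO ligase of that complex, was highest in replicate 4, at 10.44.

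Genes of CTCF partners passed in 5 of 5 cases, with 4 of them (Maz, Top2b, Chd8 and Vezf1) highest on the array of replicate 1. Over all probe sets above background 33.2% were highest there. Chd8 led by little, at 10.16 against 10.15 on replicate 2. Top2b, the topoisomerase found at loop ends, was at log2 values of 10.45, 10.22, 10.15 and 10.23. Patz1 was highest on the array of replicate 2, at 9.69.

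All 4 genes needed for contraction of the heavy-chain locus besides Ctcf were above background. Pax5, the B-lineage commitment factor, had log2 values of 11.49, 10.64, 10.90 and 10.17, with a mean of 10.80 ± 0.55 (SD, n = 4). Its range of 1.32, or 2.49-fold, was over 3 times that of Nipbl. Ikzf1, which encodes Ikaros, was at 11.76, 11.61, 11.45 and 11.49, and Ezh2, a histone methyltransferase, at 11.97, 11.89, 11.77 and 11.87. Both were highest on the array of replicate 1. Yy1, a zinc finger factor that joins loops, had one of the smallest spreads, at 11.04 ± 0.030 (SD, n = 4).

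Smc1a and Stag2 are X-linked, and the arrays differed in sex-linked RNA. Xist, the RNA of the inactive X chromosome, was at a log2 value of 5.48 on the array of replicate 3 and at 13.04 to 13.17 on the others, while the Y-linked gene Eif2s3y was at 10.05 there and at 4.62 to 5.17 elsewhere. The RNA of replicate 3 was thus male and that of the others female. On the array of replicate 3 Smc1a deviated by -0.06 and Stag2 by -0.07 from the mean of the others. Smc1a had its lowest value there, while the lowest value of Stag2 was that of replicate 2. Hdac8, also X-linked, was lowest there too, at 8.76, but at 8.78 on replicate 2. Its deviation there of -0.21 is taken from a mean that includes 9.22 on replicate 1. The autosomal genes Stag1, Nipbl and Pds5b also had their lowest value there, and the median deviation of the 10 genes was -0.07. Genes known to escape X inactivation in mice, chosen for naming after their values were seen, deviated there by -0.30 (Kdm5c), -0.61 (Kdm6a), -0.41 (Eif2s3x) and 0.03 (Ddx3x, the probe set with the higher mean). Over 379 X-linked probe sets above background the median deviation on that array was 0.004, beside 0.008 over 13352 autosomal ones.

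**Figure D5:**
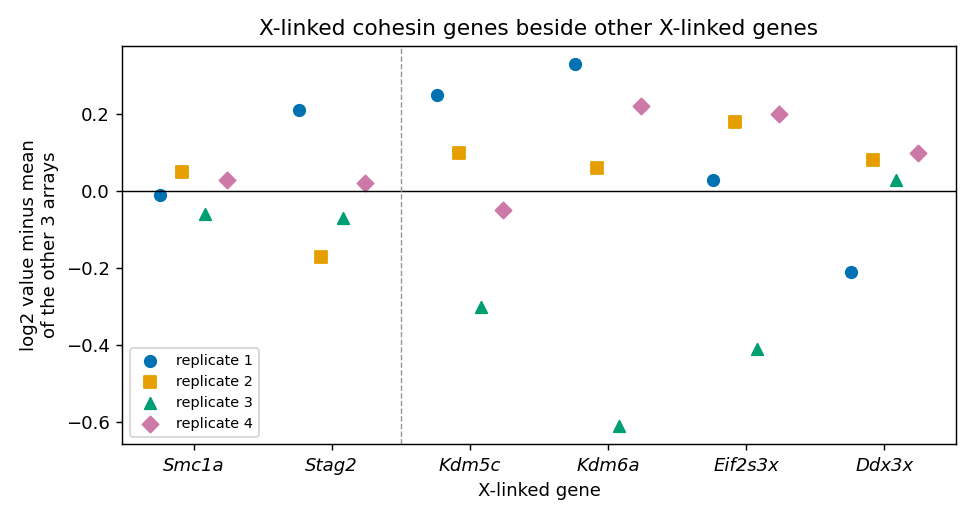
Log2 value on 1 array minus the mean of the other 3 arrays (vertical axis) for the X-linked cohesin genes Smc1a and Stag2 and, right of the dashed line, 4 other X-linked genes (horizontal axis), by replicate. On replicate 3 Smc1a lies at -0.06, Stag2 at -0.07 and Kdm6a at -0.61.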

How the data were processed

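RNA of pro-B cells was labelled from 300.0 ng per array, per the labels. The deposited values are log2 intensities per probe set; the authors used RMA for background correction and normalization in R/Bioconductor. The methods name a filter on low expression without its threshold. Which arrays were normalized together is not given in the sources used here. Of 34760 probe sets, 21640 have 1 symbol in the platform annotation, 1321 several and 11799 none listed; gene identifiers of 21553 were found in the RefSeq gene table, and 0 symbols changed. Values span 2.27 to 14.6.

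The background line was the 95th percentile of 1242 silent-gene probe sets, of which 45 were themselves above it on all arrays. SDs, deviations and within-array differences were computed in Python 3.11.15 with numpy 2.4.6 and pandas 2.3.3. For genes with more than 1 probe set, any of them passing the line was enough, and deviations were taken from the one with the highest mean. Named genes were the 10 members, the genes of the pathway lists, Kit, Ptprc and the sex-linked list (all but Xist and Eif2s3y chosen after their values were seen), and the 3 probe sets nearest to the member with the largest SD. One gene of the pathway lists is not reported here. Members and lists were chosen with earlier results of these data known. Alternatives were other lines, 3 of 4 arrays, a one-sided limma test (R 4.3.3, limma 3.58.1) tested on simulated data, quantile normalization, cyclic loess, median centring, the range, no filter, the mean of all probe sets of a gene, and leaving out each array. No test between groups was made, since all samples form 1 group, and the number of arrays limits the precision. 0 columns of the table were left without a sample.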

Additional observations from a re-analysis of the deposited data

Results flagged for a closer look

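By Dixon's ratio 1 array lay far from the rest for 1 of the 10 CTCF and cohesin probe sets and 1 of 43 of the pathway, where chance gives about 1 in 20, or 0.5 and 2.15. With Kit, Ptprc and the sex-linked genes it did so for 6 of 64. That count was raised by Xist and Eif2s3y, which differ with the sex of the cells. Kit and a probe set of Ddx3x were flagged on the array of replicate 1. Rad21 was higher on the array of replicate 1, at a log2 value of 11.65 against a mean of 11.47 on the other arrays. Among the pathway genes Chd8 was lower on the array of replicate 4, at 10.06 against 10.15. Kit was lower on the array of replicate 1, at 10.46 against 10.81, and so was a probe set of Ddx3x, at 9.61 against 10.04. On the array of replicate 3 Xist was at 5.48 against 13.09 and Eif2s3y at 10.05 against 4.81.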

How the results depend on the processing

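No paired analysis was possible because the design holds a single group. All 10 CTCF and cohesin genes were above background under each of the 13 alternatives run, and 36 to 38 pathway genes were. For the 10 genes several of these could not change the count. Their values were all at 9.78 or above, and the 99th percentile lines lay at 7.17 to 7.26 and the array medians at 7.31 to 7.35. Asking for 3 of 4 arrays or leaving out 1 array could not lower it either. Measured as the range instead of the SD, the median spread of the 10 genes was 0.22, beside 0.256 over all probe sets above background. Leaving out each replicate in turn gave a median SD of 0.059 to 0.11, and an SD of the difference of Wapl and Nipbl of 0.093 (without replicate 1) to 0.33. The count of 7 genes highest on the array of replicate 1 was 7 with quantile normalization, cyclic loess and median centring and without replicate 2, 3 or 4, all chosen after the data were seen; over all probe sets the share was then 26.7% to 40.4%. The median deviation on the array of replicate 2 turned from -0.042 to 0.014 without replicate 1. That on the array of replicate 4 was 0.007, and -0.031 to 0.035 over the replicates left out. The cause was not tested. With 1 probe set for each of the 10 genes, averaging probe sets moved nothing by construction. Signal over background limited none of the 10 genes, but Ctcfl and Rec8 lay close to the line.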
